A study of Rattus norvegicus and Mus musculus with 18 samples.

Results

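The 10 genes Igf2, Igf2r, H19, Dlk1, Meg3, Rian, Cdkn1c, Plagl1, Peg3 and Nnat are imprinted growth regulators, here described in the separated tissues of the embryonic kidney of mouse and rat. They are 10 of the 19342 gene symbols in the tables used here and were measured by 48 of the 71239 probe sets on 4 Affymetrix array designs, a probe set being a group of short oligonucleotides that reads 1 transcript. Each of the 48 was annotated to only 1 of the 10 symbols. The mouse array held 31 of them for 9 genes, rat design A held 14 for 7 genes, rat design B held 3 for 2 genes and rat design C held 0. Rian and Peg3 were read only in mouse and H19 only in rat, because the mouse probe set for H19 also carries a second symbol and was not used. The mouse groups were ureteric bud tips, ureteric bud stalks and metanephric mesenchyme at embryonic day E12.5, from about 1000 tips, 350 stalks and 300 mesenchymes. The rat groups were whole ureteric bud and metanephric mesenchyme at embryonic day E13.5, from about 1200 buds and 240 mesenchymes. The tissues were taken apart with pins after 10 min in DNase and trypsin. Strain and genotype are not stated in the labels, and no treatment besides this digestion is named. Each tissue gave 1 pooled RNA that was labelled 2 times, so the n of 2 in each group covers labelling and hybridisation but no spread between embryos, and every p-value below measures that technical spread.

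An imprinted gene is transcribed mainly from the allele of 1 parent, and many such genes set how fast a fetus grows. Paternally expressed Igf2 encodes a growth factor that signals through the IGF1 receptor, whereas maternally expressed Igf2r encodes a receptor that carries IGF2 to the lysosome for degradation. H19, Meg3 and Rian are maternally expressed noncoding RNAs. H19 shares enhancers with Igf2, and Meg3 and Rian lie in 1 imprinted domain with paternally expressed Dlk1, which encodes a membrane protein of the Notch ligand family. Cdkn1c, a maternally expressed inhibitor of cyclin-dependent kinases, restrains cell division, and mice without it have a defective renal medulla. Plagl1 and Peg3 are paternally expressed zinc finger factors, and in mouse the Plagl1 protein is known to bind and activate other imprinted genes. Nnat, also paternally expressed, encodes a small protein of the endoplasmic reticulum. The ureteric bud is the epithelial tube whose branching tips build the collecting ducts, and the metanephric mesenchyme around it holds the precursors of nephrons and stroma. The arrays read the sum of both alleles and do not show which parent's copy was active.

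H19, Igf2 and Meg3 are also hosts of microRNAs, short RNAs whose bases 2 to 8, the seed, pair with target messages. The mature forms that RefSeq places within these rat genes (build GRCr8) are shown because they come from the same transcription units as the values below, with the seed in capitals. Those of H19 span bases 207161800 to 207161821 (5p) and 207161766 to 207161786 (3p) of chromosome 1. Those of Igf2 span bases 207247903 to 207247924 and 207247865 to 207247886 of the same chromosome. Both pairs lie on the minus strand. Those of Meg3 span bases 134298094 to 134298115 and 134298129 to 134298145 of chromosome 6, on the plus strand. No seed was shared between them, and the arrays gave no value for the mature forms.
rno-miR-675-5p in H19: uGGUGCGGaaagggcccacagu
rno-miR-675-3p in H19: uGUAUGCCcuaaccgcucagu
rno-miR-483-5p in Igf2: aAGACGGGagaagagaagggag
rno-miR-483-3p in Igf2: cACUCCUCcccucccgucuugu
rno-miR-770-5p in Meg3: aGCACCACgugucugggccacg
rno-miR-770-3p in Meg3: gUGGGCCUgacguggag

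RefSeq's table of rat promoters (GRCr8, 250 bases before to 50 after each start) matched 6 of the 10 members with 7 entries of 300 bases. CpG dinucleotides, the sites of the methylation that marks imprinted alleles, are in capitals in the entries below. The entries of Plagl1 and of the 2 Igf2 starts are shown because both genes had called differences in rat, and those of Dlk1 and Meg3 because these neighbours had the largest folds between mouse tip and mesenchyme.
Plagl1, chr1:9297214-9297513, plus strand: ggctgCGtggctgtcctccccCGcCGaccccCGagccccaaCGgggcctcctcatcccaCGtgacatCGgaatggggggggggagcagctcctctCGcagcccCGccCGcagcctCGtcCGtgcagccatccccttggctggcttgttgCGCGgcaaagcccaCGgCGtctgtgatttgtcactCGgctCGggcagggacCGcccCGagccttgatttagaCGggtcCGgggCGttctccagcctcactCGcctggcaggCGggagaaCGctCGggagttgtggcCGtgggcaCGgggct
Igf2, upstream start, chr1:207253931-207254230, minus strand: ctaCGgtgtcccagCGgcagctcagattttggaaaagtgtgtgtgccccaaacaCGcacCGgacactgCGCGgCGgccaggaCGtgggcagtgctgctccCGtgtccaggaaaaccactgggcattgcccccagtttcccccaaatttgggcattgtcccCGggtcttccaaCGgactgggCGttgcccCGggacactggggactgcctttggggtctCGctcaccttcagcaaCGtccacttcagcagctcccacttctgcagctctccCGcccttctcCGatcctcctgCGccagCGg
Igf2, downstream start, chr1:207250426-207250725, minus strand: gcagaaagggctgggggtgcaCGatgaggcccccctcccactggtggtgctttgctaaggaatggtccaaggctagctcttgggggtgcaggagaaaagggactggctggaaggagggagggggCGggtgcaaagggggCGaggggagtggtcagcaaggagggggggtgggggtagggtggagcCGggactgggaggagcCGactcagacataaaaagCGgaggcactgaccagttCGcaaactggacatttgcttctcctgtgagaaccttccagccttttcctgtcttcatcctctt
Dlk1, chr6:134192347-134192646, plus strand: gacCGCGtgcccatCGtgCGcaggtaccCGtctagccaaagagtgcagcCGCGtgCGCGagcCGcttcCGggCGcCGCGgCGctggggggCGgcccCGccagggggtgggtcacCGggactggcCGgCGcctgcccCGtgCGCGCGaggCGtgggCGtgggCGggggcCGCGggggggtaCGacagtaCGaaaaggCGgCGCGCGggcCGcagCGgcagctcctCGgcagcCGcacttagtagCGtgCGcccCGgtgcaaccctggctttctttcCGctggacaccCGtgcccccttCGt
Meg3, chr6:134273806-134274105, plus strand: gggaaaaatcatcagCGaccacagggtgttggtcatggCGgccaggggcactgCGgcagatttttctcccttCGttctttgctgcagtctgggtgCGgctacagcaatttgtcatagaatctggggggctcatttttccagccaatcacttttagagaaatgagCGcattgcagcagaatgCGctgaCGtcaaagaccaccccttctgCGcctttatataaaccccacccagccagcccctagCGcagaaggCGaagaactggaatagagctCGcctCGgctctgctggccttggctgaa
The Dlk1 entry held 45 CpG, a number reached by 1.66% of the 33469 promoter entries of this length, whose median was 7. Igf2r held 30 (reached by 10.3%), Plagl1 29 (11.5%), the upstream Igf2 start 19 (25.7%), Peg3 16 (30.5%), Meg3 13 (35.3%) and the downstream Igf2 start 7 (51.4%). The letters GGGGCCCC, the core that the Plagl1 protein is known to recognise and which read the same on both strands, stood in the Peg3 entry alone among the 7, against 0.858% of all entries. In the rat annotation 0 genes lie between H19 and Igf2, 11 genes lie between Igf2 and Cdkn1c, 1 gene lies between Dlk1 and Meg3, and Nnat lies within the span of Blcap.

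The deposited intensities were linear, and those given here were quantile normalised within each array design. The 2 arrays of a tissue correlated at 0.981 to 0.998 over log2 values. The second labelling of rat bud RNA stood apart on every design, with a ratio of 3' to 5' Gapdh control signal of 4.26 to 5.28 against 1.25 to 1.47 on the other rat arrays and 0.903 to 1.01 in mouse. Single markers of the labelled tissues were highest where the labels place them. Cdh1, the epithelial cadherin, averaged 1945 in mouse tips, 1334 in stalks and 15.7 in mesenchyme, the tip receptor Ret 1531, 304 and 23.6 in the same order, and the stromal factor Foxd1 80.9, 861 and 1906. The stalk also held much stromal signal, its summed stromal list standing at 120% of mesenchyme, with 3 of 12 genes called higher and 1 lower there. In rat, Ret averaged 1596 in bud and 123 in mesenchyme, and Foxd1 192 in bud and 1566 in mesenchyme. As the tissues are bulk samples, fewer cells of a type and less RNA per cell cannot be told apart.

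In mouse, most of the members were lower in tips than in the other tissues. Of the 24 tested probe sets, 11 were lower in tips than in stalks, from 6 of the 9 genes (Igf2, Cdkn1c, Peg3, Dlk1, Meg3 and Rian), and 0 were higher. By the brightest probe set alone 4 of the 9 genes were called lower (Cdkn1c, Dlk1, Meg3 and Rian), where 4.18% of 12359 genes were. Igf2 was called only on a dim probe set whose tip mean, 39.3, was under the intensity limit for testing, so that it was tested through the other tissues. Probe sets with a mean under the table median, 49.5 in mouse, in every tissue were left out. This removed 7 of the 31 member probe sets (6.93 to 37.4 over all arrays). A call needed a limma adjusted p under 0.05 (Benjamini-Hochberg over all tested probe sets) and a difference of at least 2-fold on the log2(intensity + 16) scale. The share of member probe sets called lower was 45.8%, against 3.63% called lower and 0.953% called higher among all 23937 tested probe sets. The members were chosen with earlier results of these data known. This share and those below therefore describe the members and do not test imprinted genes as a class. Against mesenchyme, 14 of the 24 were lower in tips, from 7 genes, with Nnat added, and 0 were higher (6 of 9 genes by the brightest probe set, again without Igf2, where 5.06% of all genes were lower). That was 58.3% of the member probe sets, against 4.27% of all tested probe sets called lower and 3.9% called higher. Between stalk and mesenchyme 0 of the 24 member probe sets were called, where 2.77% of all probe sets were. By limma, 12 of the 24 had an adjusted p under 0.05 at less than 2-fold, where 13.1% of all probe sets had one at any fold, and 14 an unadjusted p under 0.05. Counted by gene, with the brightest probe set for each, the median difference of the 9 members was -0.88 between tip and stalk, -1.26 between tip and mesenchyme and -0.21 between stalk and mesenchyme on the log2 scale. Over all 12359 genes those medians were 0.06, 0.01 and -0.05. The 3 comparisons share arrays with each other and are not independent.

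**Figure D1:**
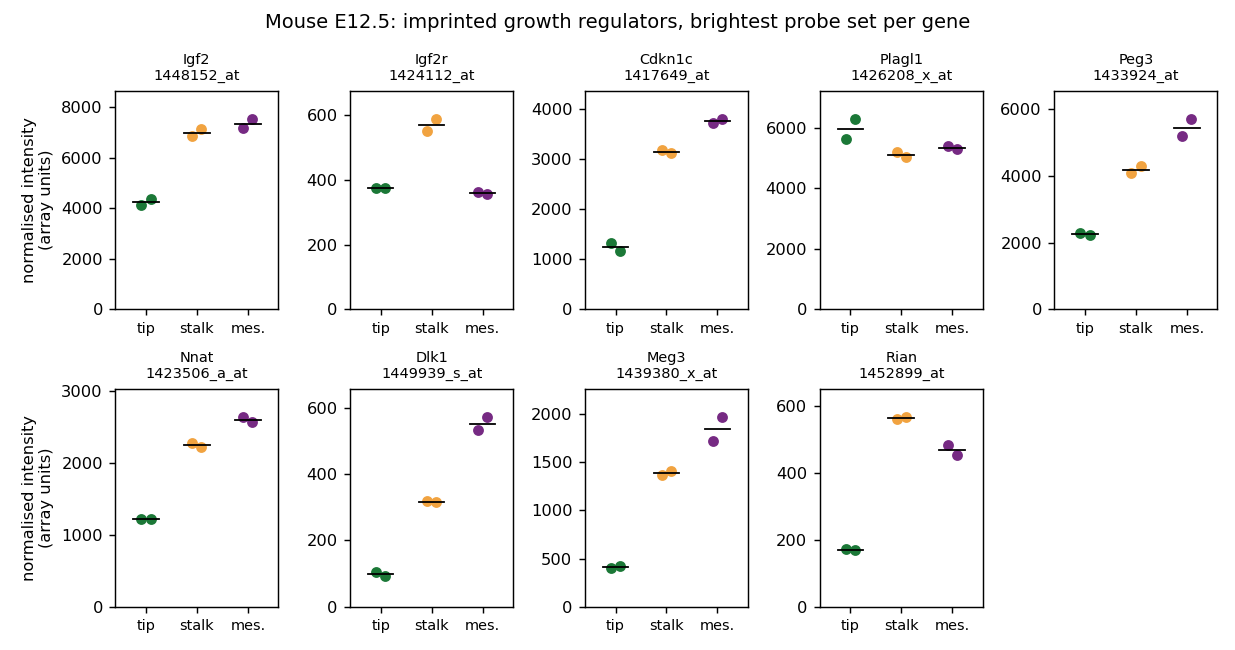
Normalised intensity (linear axis from 0, array units) of the brightest probe set of each of the 9 mouse genes, with a point for each array and a line at the mean of tip, stalk and mesenchyme (mes.). For Igf2, Cdkn1c, Peg3, Nnat, Dlk1, Meg3 and Rian both tip points lie below all stalk and mesenchyme points, Igf2r and Rian are highest in the stalk, and Plagl1 lies between 5023 and 6276 on every array.

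Igf2, the growth factor, was read by 2 mouse probe sets that were both lower in tips. Probe set 1448152_at gave 4149 and 4359 in tips, 6854 and 7138 in stalks, and 7182 and 7529 in mesenchyme. Both tip arrays lay below all others, and stalks lay just under mesenchyme. The tip level was 57.8% of that in mesenchyme and the stalk level 95.1%. The log2 difference was -0.72 between tip and stalk (SE 0.04, limma adjusted p = 5.37e-06) and -0.79 between tip and mesenchyme (SE 0.04, adjusted p = 1.44e-06), 1.64-fold and 1.73-fold, which is short of the 2-fold limit. The stalk differed from mesenchyme by -0.07 (adjusted p = 0.362). The dim probe set 1415931_at gave 50.02 and 28.5 in tips, 119 and 116 in stalks, and 125 and 93.8 in mesenchyme, and was 2.47-fold lower in tips than stalks (log2 -1.30, SE 0.20, limma adjusted p = 0.00157). Its second tip array lay under the table median, and its 2 tip arrays were further apart, relative to their mean, than those of the bright probe set.

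Igf2r, the receptor that removes IGF2, had its highest level in the stalk. Probe set 1424112_at gave 377 and 376 in tips, 551 and 588 in stalks, and 362 and 358 in mesenchyme. Stalk arrays stood above all others, and tip arrays only just above mesenchyme. The stalk was higher than mesenchyme by 0.64 (SE 0.06, limma adjusted p = 0.00019, 1.56-fold) and the tip lower than the stalk by -0.58 (SE 0.06, adjusted p = 0.000211, 1.49-fold), both below the 2-fold limit. The tip minus mesenchyme difference was 0.06 with a 95% interval of -0.08 to 0.20 (limma adjusted p = 0.545). The other probe set, 1424111_at, gave 318 and 335 in tips, 424 and 447 in stalks, and 340 and 319 in mesenchyme. It shared the stalk excess (0.39 over mesenchyme, adjusted p = 0.00747), but its tip and mesenchyme arrays overlapped, at a difference of -0.01.

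Cdkn1c, the brake on the cell cycle, gave 1314 and 1162 in tips, 3173 and 3116 in stalks, and 3715 and 3792 in mesenchyme on its single mouse probe set 1417649_at. The order of the tissues held on every array, with the tips far below and the stalks close to mesenchyme. Tips were 2.52-fold lower than stalks (log2 -1.34, SE 0.06, limma adjusted p = 6.5e-07) and 3.01-fold lower than mesenchyme (log2 -1.59, SE 0.06, adjusted p = 9.75e-08). The stalk difference from mesenchyme was -0.25 (adjusted p = 0.0185), under 2-fold.

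Plagl1, the zinc finger factor that acts on other imprinted genes, was level across the mouse tissues. Its bright probe set 1426208_x_at gave 5629 and 6276 in tips, 5198 and 5023 in stalks, and 5379 and 5298 in mesenchyme. Tips were slightly above the other tissues, by 0.22 over stalk (95% interval 0.10 to 0.34, limma adjusted p = 0.0137, 1.16-fold) and by 0.15 over mesenchyme (0.04 to 0.27, adjusted p = 0.0493). The suffix _x_at marks a probe set whose oligonucleotides may also bind other transcripts. The second probe set, 1450533_a_at, gave 233 and 214 in tips, 177 and 183 in stalks, and 188 and 171 in mesenchyme, with differences of 0.29 over both stalk (adjusted p = 0.0602) and mesenchyme (adjusted p = 0.0514). Neither of these 2 differences passed the threshold. The third, 1438588_at, at 27.8 and 32.2 in tips, 25.4 and 27.1 in stalks, and 24.4 and 33.0 in mesenchyme, was under the intensity limit and was not tested.

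Peg3, the other zinc finger factor, was lower in tips on all 3 probe sets that were tested. Probe set 1433924_at gave 2295 and 2224 in tips, 4079 and 4290 in stalks, and 5198 and 5698 in mesenchyme. Probe set 1417355_at gave 1029 and 1030 in tips, 2578 and 2752 in stalks, and 3104 and 3178 in mesenchyme. Probe set 1417356_at gave 936 and 857 in tips, 1970 and 1955 in stalks, and 2835 and 2698 in mesenchyme. The tissues fell into the same order on all 3, tip below stalk below mesenchyme, with no overlap between arrays. Tip minus mesenchyme was -1.26, -1.59 and -1.61 in that order of probe sets (limma adjusted p of 2.19e-07, 2.06e-08 and 5.27e-08). Tip minus stalk was -0.88, -1.36 and -1.12, the first of these under 2-fold, and stalk minus mesenchyme was -0.38, -0.24 and -0.49, all under 2-fold. The other 2 Peg3 probe sets were too dim to test. Probe set 1447731_at gave 6.93 and 7.68 in tips, 8.53 and 7.73 in stalks, and 8.33 and 8.88 in mesenchyme, and 1447732_x_at gave 7.05 and 8.98 in tips, 9.47 and 9.58 in stalks, and 9.15 and 9.5 in mesenchyme.

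Nnat, the protein of the endoplasmic reticulum, gave 1221 and 1222 in tips, 2269 and 2221 in stalks, and 2633 and 2559 in mesenchyme on probe set 1423506_a_at. Here too each array of a tissue kept its place, with tips at 47.1% of the mesenchyme level and stalks at 86.5%. Tips were 2.11-fold lower than mesenchyme (log2 -1.08, SE 0.04, limma adjusted p = 1.14e-07) and 1.83-fold lower than stalks (log2 -0.87, SE 0.04, adjusted p = 9.29e-07), the second of these short of the limit. Blcap, the gene in whose span Nnat lies, differed by -0.44 between tip and mesenchyme and -0.37 between tip and stalk.

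Dlk1, the Notch-family membrane protein, showed the widest spread of the protein-coding members in mouse. Probe set 1449939_s_at gave 106 and 91.9 in tips, 320 and 315 in stalks, and 532 and 572 in mesenchyme. The 3 tissues formed 3 separate steps. Tips were 4.95-fold lower than mesenchyme (log2 -2.31, SE 0.09, limma adjusted p = 1.82e-07) and 2.91-fold lower than stalks (log2 -1.54, SE 0.09, adjusted p = 4.63e-06). Stalks were 1.70-fold lower than mesenchyme (log2 -0.77, adjusted p = 0.000548), under the limit. The second probe set, 1442724_at, at 20.3 and 22.8 in tips, 18.9 and 22.1 in stalks, and 24.1 and 19.2 in mesenchyme, was too dim to test.

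Meg3, the maternally expressed noncoding RNA downstream of Dlk1, was read by 11 mouse probe sets, of which 9 were tested. Of these, 4 were called lower in tips than stalks and 5 lower in tips than mesenchyme, while 0 of 9 were called between stalk and mesenchyme. The brightest, 1439380_x_at, gave 398 and 426 in tips, 1369 and 1412 in stalks, and 1718 and 1969 in mesenchyme, and was 4.34-fold lower in tips than mesenchyme (log2 -2.12, SE 0.07, limma adjusted p = 5.78e-08). Probe set 1436713_s_at gave 139 and 82.8 in tips, 556 and 532 in stalks, and 795 and 751 in mesenchyme, and was 6.38-fold lower in tips than mesenchyme (log2 -2.67, adjusted p = 3.76e-06), the largest fold among the mouse members. Not every Meg3 probe set placed stalk below mesenchyme. Probe set 1452905_at gave 95 and 69.5 in tips, 349 and 344 in stalks, and 344 and 345 in mesenchyme, a stalk minus mesenchyme difference of 0.01. Probe set 1452183_a_at, at 218 and 274 in tips, 579 and 585 in stalks, and 741 and 763 in mesenchyme, was 2.95-fold lower in tips than mesenchyme. Probe set 1426758_s_at, at 184 and 215 in tips, 338 and 345 in stalks, and 503 and 490 in mesenchyme, was 2.39-fold lower. The other 4 tested probe sets were dim, and their tip minus stalk differences were -0.05 to 0.18. Probe set 1428764_at gave 40.6 and 52.4 in tips, 44.3 and 45.0 in stalks, and 49.9 and 50.9 in mesenchyme, and 1429256_at gave 49.0 and 56.4 in tips, 53.4 and 56.9 in stalks, and 54.4 and 83.4 in mesenchyme. Probe set 1429257_at gave 69.4 and 97.9 in tips, 66.6 and 75.3 in stalks, and 64.3 and 92.5 in mesenchyme, and 1452906_at gave 63.0 and 84.7 in tips, 65.5 and 73.2 in stalks, and 84.7 and 80.5 in mesenchyme. None of these 4 was called in any mouse comparison. The 2 that were not tested were 1428765_at, at 18.3 and 23.5 in tips, 31.5 and 32.4 in stalks, and 37.4 and 30.6 in mesenchyme, and 1436057_at, at 31.6 and 34.6 in tips, 36.9 and 31.5 in stalks, and 30.8 and 36.4 in mesenchyme. The Meg3 calls came from the 5 probe sets with the brighter stalk and mesenchyme signals, and the sizes varied between them.

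Rian, a noncoding RNA further along the same domain that carries small nucleolar RNAs, had its highest arrays in the stalk. Probe set 1452899_at gave 171 and 168 in tips, 562 and 566 in stalks, and 483 and 453 in mesenchyme. Probe set 1427580_a_at gave 101 and 100.3 in tips, 300.5 and 291 in stalks, and 241 and 247 in mesenchyme. Tip arrays were the lowest on both. Tips were lower than stalks by 3.12-fold (log2 -1.64, SE 0.07, limma adjusted p = 6.13e-07) and 2.67-fold (log2 -1.42, SE 0.09, adjusted p = 7.83e-06), and lower than mesenchyme by 2.60-fold (log2 -1.38) and 2.23-fold (log2 -1.16). Stalk minus mesenchyme was 0.26 on both probe sets, with adjusted p of 0.0386 for 1452899_at and 0.103 for 1427580_a_at. The third tested probe set, 1440001_at, at 46.2 and 49.8 in tips, 46.6 and 46.8 in stalks, and 46.8 and 53.0 in mesenchyme, gave a tip minus stalk difference of 0.03 (adjusted p = 0.884). The fourth, 1428055_at, at 9.88 and 9.67 in tips, 9.78 and 11.2 in stalks, and 10.1 and 10.8 in mesenchyme, was not tested.

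Markers of mesenchymal and other cell types also differed between the mouse tissues. The summed intensity of 12 stromal and ureteric mesenchyme genes, such as Foxd1, Col1a1 and Tbx18, was 2247 to 2578 in tips, 20352 to 20477 in stalks and 16945 to 17137 in mesenchyme, and all 12 were called lower in tips than stalks. In percent of mesenchyme this sum was 14.2 in tips and 120 in stalks. The sum of 10 nephron progenitor genes was 974 to 1130 in tips, 2702 to 2830 in stalks and 8255 to 8342 in mesenchyme, or 12.7% of mesenchyme in tips and 33.3% in stalks, with 6 of 10 called lower in tips than stalks. Sums for endothelium were 36.9% in tips and 67.0% in stalks, for erythroid genes 40.4% and 74.4%, for macrophages 46.3% and 70.8%, and for neuronal genes 29.9% and 46.3%. These sums, and those for rat below, include genes under the intensity limit for testing. In tips only 1 to 2 of 6 neuronal genes and 3 to 5 of 7 macrophage genes reached the table median. The percentages for these lists therefore rest partly on dim signal. Among the members, Dlk1 stood at 17.9% of mesenchyme in tips and 57.5% in stalks, Meg3 1439380_x_at at 22.3% and 75.4%, Cdkn1c at 33.0% and 83.8%, Rian 1452899_at at 36.3% and 120%, Peg3 1433924_at at 41.5% and 76.8%, and Plagl1 1426208_x_at at 112% and 95.7%. The part of these cell types in the members' differences was not tested. Every deposited intensity was above 0, so no marker was at 0.

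**Figure D2:**
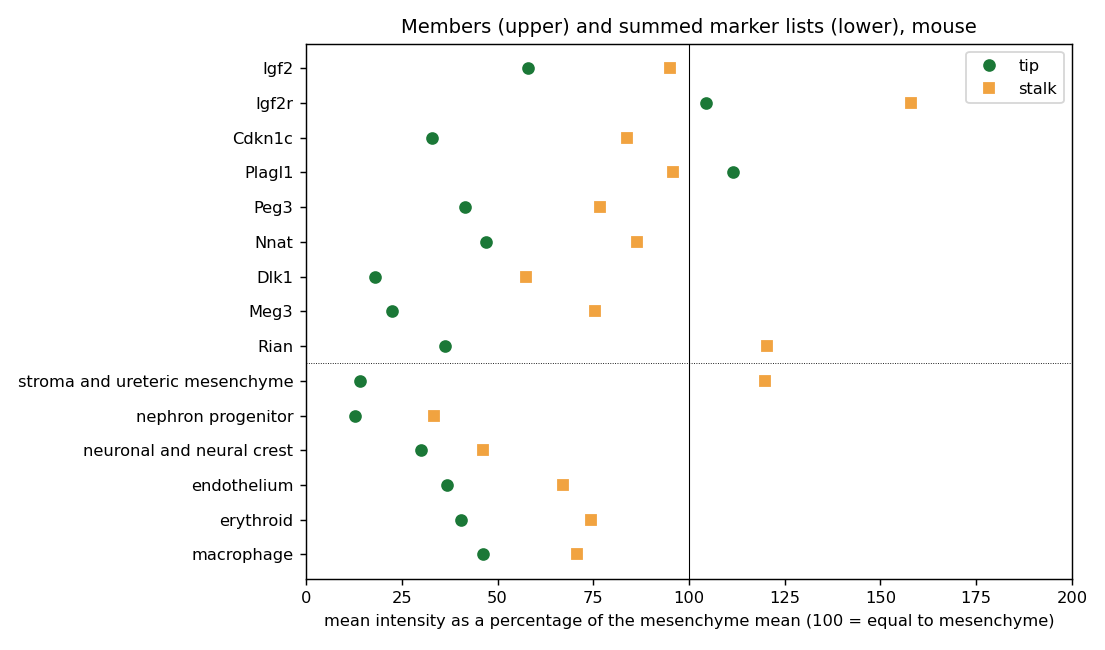
Mean intensity as a percentage of the mesenchyme mean (line at 100) for the brightest probe set of each mouse gene (upper rows) and for summed marker lists (lower rows), with tips as circles and stalks as squares. The stromal list stands at 14.2% in tips and 120% in stalks, Dlk1 at 17.9% and 57.5%, and Igf2 at 57.8% and 95.1%.

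In rat, 6 of the 12 tested member probe sets on design A were lower in bud than mesenchyme, from the 4 genes Igf2, H19, Plagl1 and Nnat, and 0 were higher. Among the 4629 tested probe sets, 3.02% were called lower and 2.77% higher. By the brightest probe set 4 of 7 genes were lower, where 2.59% of all genes were. On design B, 1 of 3 was lower, a Cdkn1c probe set, and 0 were higher, where 2.74% of 4667 tested probe sets were called lower and 3.06% higher. By gene that was 1 of 2, where 2.22% of all genes were lower. On design C, which held none of the members, 4.63% of the tested probe sets were called in either direction.

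**Figure D3:**
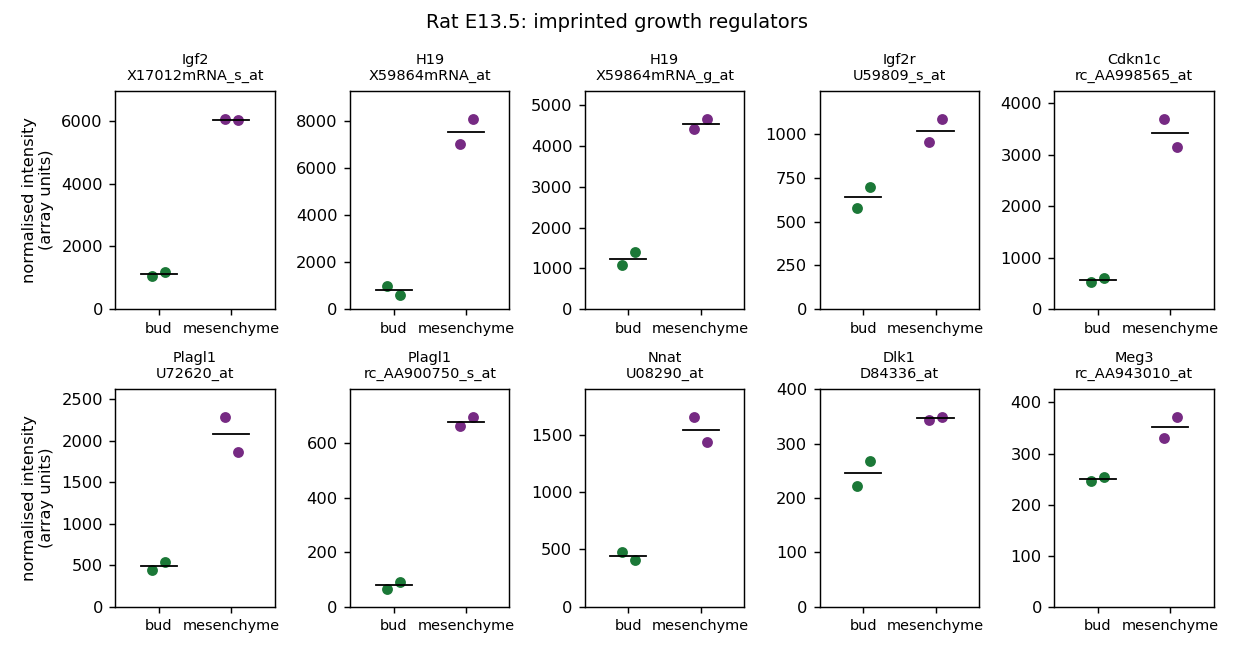
Normalised intensity (linear axis from 0, array units) of 10 rat member probe sets, with a point for each array and a line at the mean of bud and of mesenchyme. Both bud points lie below both mesenchyme points in every panel, from 607 and 981 against 7038 and 8082 for H19 X59864mRNA_at to 246 and 253 against 331 and 371 for Meg3. The Igf2 and Cdkn1c probe sets with no call are not drawn, so the panels do not stand for all rat member probe sets. Of those tested, bud and mesenchyme arrays overlapped on M17960_at, M17960_g_at, AF053094_at and rc_AA899093_at, but not on E00988mRNA_s_at.

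H19, the noncoding partner of Igf2, showed the largest fold of all rat members. Probe set X59864mRNA_at gave 981 and 607 in bud, against 7038 and 8082 in mesenchyme, a 9.59-fold lower level in bud (log2 -3.26, SE 0.23, 95% interval -3.81 to -2.72, limma adjusted p = 0.00029). Probe set X59864mRNA_g_at, made to the same sequence entry, gave 1089 and 1392 in bud, against 4408 and 4652 in mesenchyme, 3.64-fold lower in bud (log2 -1.86, SE 0.15, adjusted p = 0.000555). Both directions held on all arrays, though the sizes differed between the 2 probe sets. In the first of them the second bud labelling was the lower array and in the other the higher. Without that labelling the differences were -2.92 and -2.04.

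Igf2 itself was read by 6 probe sets on design A, of which 4 were tested and only X17012mRNA_s_at was called. It gave 1066 and 1182 in bud, against 6048 and 6026 in mesenchyme, 5.31-fold lower in bud (log2 -2.41, SE 0.12, limma adjusted p = 9.94e-05). This signal was close to even within each tissue. The other 3 tested probe sets gave no such gap. Probe set E00988mRNA_s_at gave 208 and 273 in bud, against 298 and 319 in mesenchyme (log2 -0.35, adjusted p = 0.23). Probe set M17960_at gave 158 and 139 in bud, against 151 and 127 in mesenchyme. Probe set M17960_g_at gave 292 and 269 in bud, against 315 and 258 in mesenchyme. Probe sets M17960_at and M17960_g_at differed by 0.09 and -0.02 (adjusted p of 0.798 and 0.951), with bud and mesenchyme arrays overlapping on both. The last 2 probe sets were not tested, X16703_i_at at 10.8 and 10.9 in bud, against 10.8 and 10.7 in mesenchyme, and X16703_r_at at 32.2 and 39.0 in bud, against 32.7 and 33.7 in mesenchyme. Igf2 is known to have several promoters and transcript forms, and which of them each probe set reads was not tested.

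Cdkn1c was split the same way. On design B, rc_AA998565_at gave 520 and 607 in bud, against 3691 and 3162 in mesenchyme, 5.94-fold lower in bud (log2 -2.57, SE 0.16, limma adjusted p = 0.000273). The other design B probe set, rc_AA899093_at, gave 406 and 328 in bud, against 418 and 378 in mesenchyme (log2 -0.12, adjusted p = 0.585). On design A, AF053094_at gave 119 and 112 in bud, against 115 and 128 in mesenchyme (log2 -0.07, adjusted p = 0.836), near the median intensity of 111 for that design. Arrays of bud and mesenchyme overlapped on these last 2 probe sets.

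Plagl1 was lower in rat bud on both its probe sets. U72620_at gave 440 and 533 in bud, against 2283 and 1868 in mesenchyme, 4.16-fold lower in bud (log2 -2.06, SE 0.16, limma adjusted p = 0.000482). The probe set rc_AA900750_s_at gave 65.0 and 92.6 in bud, against 660 and 694 in mesenchyme, 7.39-fold lower in bud (log2 -2.89, SE 0.17, adjusted p = 0.000164). Both its bud arrays were under the design's median of 111, so it was tested only through its mesenchyme level and the size of its fold rests on a dim signal. Each set of bud arrays was well apart from mesenchyme, and without the second bud labelling the differences were -2.19 and -3.10. Nnat, on U08290_at, gave 479 and 406 in bud, against 1652 and 1433 in mesenchyme, 3.40-fold lower in bud (log2 -1.77, SE 0.15, limma adjusted p = 0.000616).

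The remaining rat members were lower in bud by less than 2-fold. Igf2r U59809_s_at gave 578 and 697 in bud, against 955 and 1083 in mesenchyme (log2 -0.67, SE 0.15, limma adjusted p = 0.0363). Meg3 rc_AA943010_at gave 246 and 253 in bud, against 331 and 371 in mesenchyme (log2 -0.47, SE 0.11, adjusted p = 0.0342). Dlk1 D84336_at gave 222 and 269 in bud, against 344 and 349 in mesenchyme (log2 -0.48, 95% interval -0.81 to -0.14, adjusted p = 0.0795). Bud arrays were below mesenchyme arrays for all 3 genes, but the Dlk1 difference did not pass the adjusted threshold. In rat design A the summed stromal markers were 1802 to 1986 in bud and 6315 to 7025 in mesenchyme, or 28.4% of mesenchyme in bud, and the nephron progenitor markers stood at 34.7%. On design C, 4 stromal genes summed to 68.2% of mesenchyme in bud, with 0 called. The 1 erythroid gene on design B was at 623 to 773 in bud and 5868 to 6140 in mesenchyme, and the 1 on design A, which was not called, at 67.2% of mesenchyme in bud. The part of these cells in the rat differences was not tested.

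To set the species beside each other, the mean of mouse tip and stalk was compared with mouse mesenchyme. Of 24 member probe sets, 4 were lower in this mouse bud mean, from Peg3, Meg3 and Dlk1. That is 16.7% against 1.77% of all tested probe sets called lower and 2.88% called higher. By the brightest probe set 2 of the 9 genes were lower (Meg3 and Dlk1), where 2.18% of all genes were. Peg3 was called on 1 of its 3 tested probe sets. Plagl1, 4.16-fold lower in rat bud on its brighter probe set U72620_at, differed in mouse by 0.05 (95% interval -0.06 to 0.15) on 1426208_x_at and 0.15 (-0.05 to 0.34) on 1450533_a_at. For Cdkn1c and Igf2 the rat value set beside mouse is that of the called probe set. Their other tested rat probe sets differed by only -0.12 and -0.07 for Cdkn1c, and -0.35, 0.09 and -0.02 for Igf2. Nnat was -1.77 in rat and -0.64 in mouse (limma adjusted p = 1.64e-06), and Cdkn1c was -2.57 on its called rat probe set and -0.92 in mouse (adjusted p = 1.69e-06). Igf2 was -2.41 on its called rat probe set, and in mouse -0.43 on 1448152_at (adjusted p = 3.98e-05) and -0.54 on 1415931_at (adjusted p = 0.0538). Dlk1 ran the other way in size, at -0.48 in rat and -1.54 in mouse. So did Meg3 on its brightest mouse probe set, at -0.47 in rat and -1.26 on mouse 1439380_x_at. The 9 tested mouse Meg3 probe sets ranged from -1.58 to -0.01. Igf2r was lower in rat bud (-0.67). In the mouse bud mean it was higher by 0.35 on 1424112_at (adjusted p = 0.00161) and differed by 0.19 on 1424111_at (adjusted p = 0.0583, arrays overlapping). On 1424112_at the tip alone differed from mesenchyme by 0.06 and the stalk alone by 0.64. The species differ in stage, array design and dissection, so the difference between them was not tested.

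**Figure D4:**
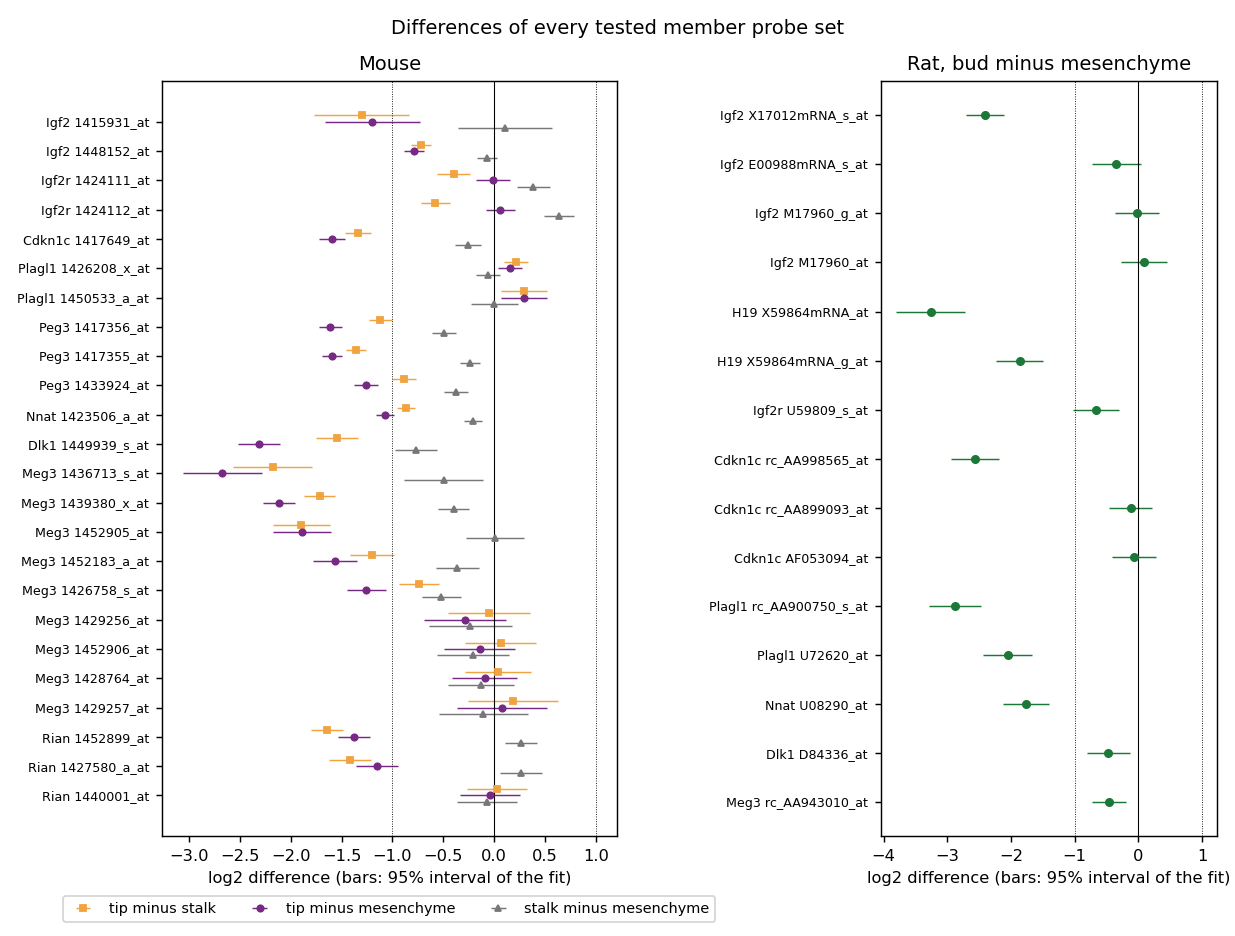
Log2 differences of all tested member probe sets with 95% intervals from the limma fit, for the 3 mouse comparisons (left) and for rat bud minus mesenchyme (right). Dotted lines mark 2-fold. Plagl1 lies near 0 in mouse and at -2.89 and -2.06 in rat.

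Other imprinted genes are counted beside all genes. Of 38 with a tested representative in mouse, 1 was higher in tips than stalks (Calcr, the calcitonin receptor, at 1.76) and 2 were lower (Airn, the noncoding RNA antisense to Igf2r, at -1.39, and the proteoglycan Dcn at -2.37), with a median of -0.01, where 1.16% of all genes were higher and 4.18% lower. Dcn is also a stromal marker in the list above. Between tip and mesenchyme 2 were higher (Calcr 3.09, Tfpi2 1.32) and 3 lower (Airn -1.09, Dcn -2.17, Impact -1.21), with a median of -0.17, where 4.65% of all genes were higher and 5.06% lower. Between stalk and mesenchyme Calcr was the 1 call, where 2.94% of all genes were higher and 0.558% lower. In the rat, 0 of 10 on design A and 0 of 10 on design C were called, and 1 of 8 on design B, Impact, at -1.20 (limma adjusted p = 0.0132), while Impact differed by -0.09 on design C. Over all genes 3.22% were higher and 2.59% lower on design A. On design B these shares were 3.2% and 2.22%, and on design C 2.22% and 1.77%.

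Of 13 tested genes of the IGF pathway in mouse, 1 was higher and 2 lower in tips than stalks, 2 were higher and 3 lower in tips than mesenchyme, and 1 was higher and 0 lower in stalks than mesenchyme. Over all genes 2.94% were higher and 0.558% lower in stalks than mesenchyme, and the shares for the tip comparisons are those given for the other imprinted genes. The binding protein gene Igfbp2, whose product holds IGFs outside the cell, was higher in tips than stalks (1.37) and than mesenchyme (2.46), in stalks than mesenchyme (1.10) and in rat bud than mesenchyme (2.92). Igf1, the sister ligand, was lower in tips than stalks (-1.96) and than mesenchyme (-2.52) but differed by -0.08 in rat. Igfbp5 was lower in tips than stalks (-1.33) and than mesenchyme (-1.42), and Igfbp3 lower than mesenchyme in tips (-1.27) and rat bud (-1.02). Igfbp5 was also lower in rat bud, on design C (-1.69), and Igfbp1 was higher in tips than mesenchyme (1.10). The shared receptor gene Igf1r was not called in any comparison, at 0.30 between tip and stalk and 0.29 between tip and mesenchyme. The pathway median was -0.07 between tip and stalk, against 0.06 over all genes.

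Among 12 tested cyclins, cyclin-dependent kinases and inhibitors of the G1 phase other than Cdkn1c, 0 were called between tip and stalk. Over all genes 1.16% were higher and 4.18% lower there. By limma, 7 of the 12 had an adjusted p under 0.05 between tip and stalk, at less than 2-fold. Between tip and mesenchyme 2 of the 12 were higher, the inhibitor gene Cdkn1a (1.91) and the cyclin gene Ccnd1 (1.08), while Cdkn1c was lower. Over all genes 4.65% were higher and 5.06% lower between these tissues. Cdkn1a was also higher in stalks than mesenchyme (1.59), where 2.94% of all genes were. Ccnd1 was higher in rat bud on design A (1.23), where 3.22% of all genes were. Of 11 tested mouse genes that maintain imprints, such as DNA methyltransferases, the only call was Dnmt3b, at 1.38 between tip and mesenchyme. The shares over all genes are those just given. In rat only 1, 3 and 2 such genes were tested on designs A, B and C, and 0 were called.

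The genes whose pattern over the 6 mouse arrays lay nearest to each member called on its brightest probe set, which leaves out Igf2, were found by the root mean square distance between centred log2 values, over 12358 candidates. For Cdkn1c these were Reep1 (0.03), BC028528 (0.06) and Dlc1 (0.07). For Dlk1 they were Hoxc4 (0.07), Slc40a1 (0.07) and Fli1 (0.09), and for Meg3 Ldb2 (0.05), Glipr2 (0.08) and Kctd12b (0.10). Rian lay nearest to Lhfpl2 (0.03), Pth1r (0.04) and Gpx7 (0.06). Peg3 lay nearest to Scarf2 (0.05), the imprinted gene Impact (0.06) and Lcp1 (0.06), and Nnat to Rasa3 (0.03), Wipi1 (0.04) and Cdo1 (0.04).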

How the data were processed

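Mouse and rat kidney tissues were measured on Affymetrix arrays, 6 mouse and 12 rat (3 designs). The deposited tables hold 1 linear intensity per probe set and array, made by the authors with a method and scaling that no source used here states. Per the labels, targets were made from 1 ug of RNA, with 2 labelings per RNA. Each table was quantile normalised on its own and its values set to log2(intensity + 16), which understates changes of dim probe sets. No depth applies to arrays, and precision is limited by their number. Control probe sets were left out. The tests used limma (version 3.58.1, R 4.3.3) with lmFit and eBayes with trend, with the 6 mouse arrays in 1 fit and each rat table in its own, and Benjamini-Hochberg adjustment over all tested probe sets. The fit was tried on simulated data with independent noise on each array and changes planted only in brighter probe sets. That trial does not cover dim probe sets or deviations shared between arrays. Names came from the platform annotation, which gave 34945 mouse probe sets 1 symbol, 932 several and 9160 none. For rat design A the counts were 7006, 308 and 1426. For B they were 5351, 38 and 3343, and for C 5821, 45 and 2864. Every member probe set is given with its values. From the other lists, representatives called in any comparison could be named. The members and lists were chosen with earlier results of these data known. Alternatives were other pseudocounts, filters and normalisations, a replicate block, and leaving out each array.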

Additional observations from a re-analysis of the deposited data

Results flagged for a closer look

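Igf2r differed in direction between rat and mouse probe set 1424112_at, where the mouse excess lay mainly in the stalk. In mouse the mean of both bud parts was above mesenchyme by 0.35 on the log2 scale, with all 4 tip and stalk arrays above both mesenchyme arrays on 1424112_at, whereas in rat both bud arrays were below mesenchyme (-0.67). On 1424112_at the tip alone differed from mesenchyme by 0.06 (limma adjusted p = 0.545) and the stalk alone by 0.64. The other mouse probe set, 1424111_at, gave 0.19 (limma adjusted p = 0.0583) with overlapping arrays, at -0.01 for the tip and 0.39 for the stalk. The difference between the species was not tested.

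Within mouse, 3 probe sets had both tip arrays on 1 side of both mesenchyme arrays and both stalk arrays on the other side, and the limma test of tip minus stalk passed for each. Plagl1 1426208_x_at was above mesenchyme in tips and below it in stalks, with a tip minus stalk difference of 0.22, but its stalk minus mesenchyme difference was -0.06 (95% interval -0.18 to 0.06, adjusted p = 0.521) and that of the second Plagl1 probe set 0.00. Rian 1427580_a_at and Rian 1452899_at were below mesenchyme in tips and above it in stalks, with tip minus stalk differences of -1.42 and -1.64. Their stalk minus mesenchyme difference was only 0.26 on both (limma adjusted p of 0.103 and 0.0386). On the third tested Rian probe set, 1440001_at, it was -0.07. With 2 arrays per tissue, groups were too small for a check of single outlying arrays.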

How the results depend on the processing

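Of 1298 recomputed member differences (111 differences under the alternative pseudocounts, filters, normalisations, the replicate block and the left-out arrays), 1291 kept their side of the call threshold. The sign changed in 25, from 19 differences of which 0 were called and 0 had a limma adjusted p under 0.05. The calls that changed were Igf2 1415931_at, Rian 1427580_a_at and 2 Meg3 probe sets. Igf2 1415931_at fell below 2-fold with a pseudocount of 64 (-0.82 against stalk, -0.75 against mesenchyme) and without tip replicate 2 (-0.91 against mesenchyme). Rian 1427580_a_at did so against mesenchyme with a pseudocount of 64 (-0.90). In the mouse bud mean Meg3 1452905_at passed 2-fold with a pseudocount of 1 (-1.03) and without tip replicate 1 (-1.03), and Meg3 1452183_a_at without tip replicate 2 (-1.04). The member counts stayed at 10 to 11 for tip minus stalk, 12 to 14 for tip minus mesenchyme, 4 to 5 for the mouse bud mean, and 0, 6 and 1 for stalk minus mesenchyme, rat design A and rat design B. Equal replicate numbers deviated together (correlation 0.424 to 0.566 in mouse, 0.221 to 0.308 in rat), but the labels give these numbers no shared batch, and with the replicate block the member counts were 11, 14, 0, 4, 6 and 1, the same as without it. Each tissue was 1 pool, so no alternative speaks to the spread between embryos. Dim probe sets are limited by signal over background.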
